A study of Mus musculus with 18 samples.

Results

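The interferon-induced GTPases described here are 9 genes of 2 mouse families, the guanylate-binding proteins Gbp2, Gbp3, Gbp5 and Gbp7 and the immunity-related GTPases Irgm1, Irgm2, Igtp, Ifi47 and Iigp1. They were taken by name from a list, matched to the identifiers of the table through the GENCODE annotation, and all 9 were found among its 32328 genes. Their levels were read in 18 RNA-seq libraries of neutrophils, the short-lived granule-carrying phagocytes, with 3 libraries from each of 6 sources: Blood, bone marrow (BM), ear Skin, colon (Intestine), Lung and Spleen. All mice were adult C57BL/6 animals of 8 to 12 weeks, and the labels name no treatment or allele. Ly6G+ cells were sorted with antibodies to CD45, CD11b and Ly6G and the dye DAPI, at a purity typically above 95% per the labels, which do not say whether the replicates came from separate animals. The p-values therefore measure the spread between these libraries, which may be technical.

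Cells switch these genes on when interferon-gamma or type I interferon binds its receptor and JAK kinases activate transcription factors of the STAT family, which act at GAS elements and, together with IRF9, at the interferon-stimulated response element (ISRE), while IRF1 adds to the response. GBPs assemble on the membranes of bacteria and of the vacuoles that hold pathogens, break them open and pass bacterial products to caspase-11 (the product of Casp4) and other inflammasome proteins. IRG proteins of the effector type, such as those encoded by Iigp1 and Ifi47, load onto pathogen vacuoles, whereas Irgm1, Irgm2 and Igtp (also called Irgm3) encode regulators that guard the cell's own membranes against them.

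The 4 Gbp genes lie in 1 cluster on the plus strand of chromosome 3 (mm10), in the order Gbp5 (ENSMUSG00000105504) at chr3:142493978-142522344, Gbp7 (ENSMUSG00000040253) at chr3:142530342-142550149, Gbp3 (ENSMUSG00000028268) at chr3:142560026-142573209 and Gbp2 (ENSMUSG00000028270) at chr3:142620602-142638008. Chromosome 11 holds Irgm1 (ENSMUSG00000046879, chr11:48861968-48871683, minus strand), Ifi47 (ENSMUSG00000078920, chr11:49076587-49096974, plus strand), Igtp (ENSMUSG00000078853, chr11:58199556-58207591, plus strand) and Irgm2 (ENSMUSG00000069874, chr11:58199618-58222782, plus strand). The annotated transcripts of Igtp and Irgm2 overlap on the same strand. All 9 are annotated as protein-coding.

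RefSeq promoter entries (GRCm38.p6, 250 bases before to 50 after the transcript start) were matched for 8 of the 9 members and searched on both strands for the letters of 2 motifs. The ISRE letters GAAANNGAAA were found in 7 of the 8 members, against 3.44% of 32851 promoters, and the GAS letters TTCNNNGAA in 4, against 8.3%. Gbp5, Gbp7, Irgm2 and Igtp held both, which 0.454% of all promoters did. The windows below run from base -110 to base -1 before the start, 5′ to 3′ on the gene's strand, with the motif matches in capitals. They are shown for the 4 genes whose Blood libraries all lay above the other 15 (Gbp2, Gbp7, Irgm1 and Ifi47) and for the neighbours Irgm2 and Igtp.
Gbp2 (chr3:142620553-142620662, plus strand): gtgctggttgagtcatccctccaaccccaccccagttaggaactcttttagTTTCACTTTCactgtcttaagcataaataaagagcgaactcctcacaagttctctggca
Gbp7 (chr3:142530226-142530335, plus strand): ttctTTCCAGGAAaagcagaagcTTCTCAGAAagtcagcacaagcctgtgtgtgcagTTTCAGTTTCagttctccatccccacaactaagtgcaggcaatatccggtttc
Irgm1 (chr11:48871421-48871530, minus strand): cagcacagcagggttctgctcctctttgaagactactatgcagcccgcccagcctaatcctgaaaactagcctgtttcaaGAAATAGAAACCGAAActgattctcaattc
Irgm2 (chr11:58214867-58214976, plus strand): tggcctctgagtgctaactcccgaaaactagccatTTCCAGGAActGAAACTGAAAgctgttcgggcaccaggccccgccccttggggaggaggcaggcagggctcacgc
Igtp (chr11:58199446-58199555, plus strand): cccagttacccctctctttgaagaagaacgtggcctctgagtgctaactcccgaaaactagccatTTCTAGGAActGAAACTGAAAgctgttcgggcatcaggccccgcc
Ifi47 (chr11:49076477-49076586, plus strand): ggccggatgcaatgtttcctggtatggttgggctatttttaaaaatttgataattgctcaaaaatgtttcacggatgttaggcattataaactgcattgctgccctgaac

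In Gbp2 the ISRE letters, read on the other strand as TTTCACTTTC, begin at base -59. Gbp7 held GAS letters at bases -106 and -87 and ISRE letters at -53. The capitals of Irgm1 are 2 ISRE matches, from -30 and -24, that overlap by 4 bases. Irgm2 and Igtp carried a GAS match followed closely by the same ISRE letters, at -75 and -64 in Irgm2 and at -45 and -34 in Igtp, and their longest shared run was 61 bases. Ifi47 had neither in its entry, which says only that these letters are not in that window. Gbp3, with ISRE letters at -45 and -39 in 1 of its 2 entries, and Gbp5, with GAS letters at -245 and -52 and ISRE letters at -165, are not printed.

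The deposited values are estimated read counts divided by an effective library size, not by gene length, so levels below are in scaled counts. In units of 1000000, the libraries held 2.94 to 12.1 estimated counts, and 12 housekeeping genes were above 0 in every library. Skin stood apart before any result: its libraries spread more than the others, with an estimated weight of 0.223 in the fit against 0.923 to 2.13 for the other 5 tissues, and replicate 2 had the smallest effective library, 2.31 in the same unit. The 10 neutrophil markers summed to 36300 to 47800 scaled counts in BM, 30700 to 32800 in Blood, 12000 to 16500 in Spleen and 5870 to 18500 in Lung, but to 929 to 1240 in Intestine and from 1230 (replicate 1) to 20300 in Skin. The 6 keratinocyte markers summed to 1020 to 12700 in Skin, with the highest sum in replicate 1, and to at most 116 elsewhere. In bulk libraries such as these, fewer cells of a type and less RNA per cell cannot be told apart.

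In Blood 7 of the 9 members had their highest mean log2 level, where 17.2% of the 16157 tested genes did. In 4 of them, Gbp2, Gbp7, Irgm1 and Ifi47, all 3 Blood libraries lay above all 15 others, where 1.49% of tested genes showed this. Gbp5 was highest in Skin and Iigp1 in Intestine, as 13.6% and 29% of tested genes were. All 9 members passed limma's F test between the 6 tissues at an adjusted p under 0.05, as 40.4% of tested genes did. The adjusted p ran from 8.5e-07 for Gbp2 and 9.93e-06 for Iigp1 to 0.0322 for Igtp and 0.0336 for Ifi47. The last 2 were the weakest: without Blood replicate 1, without Blood replicate 2 or without Lung replicate 1, 7 of the 9 members passed.

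**Figure D1:**
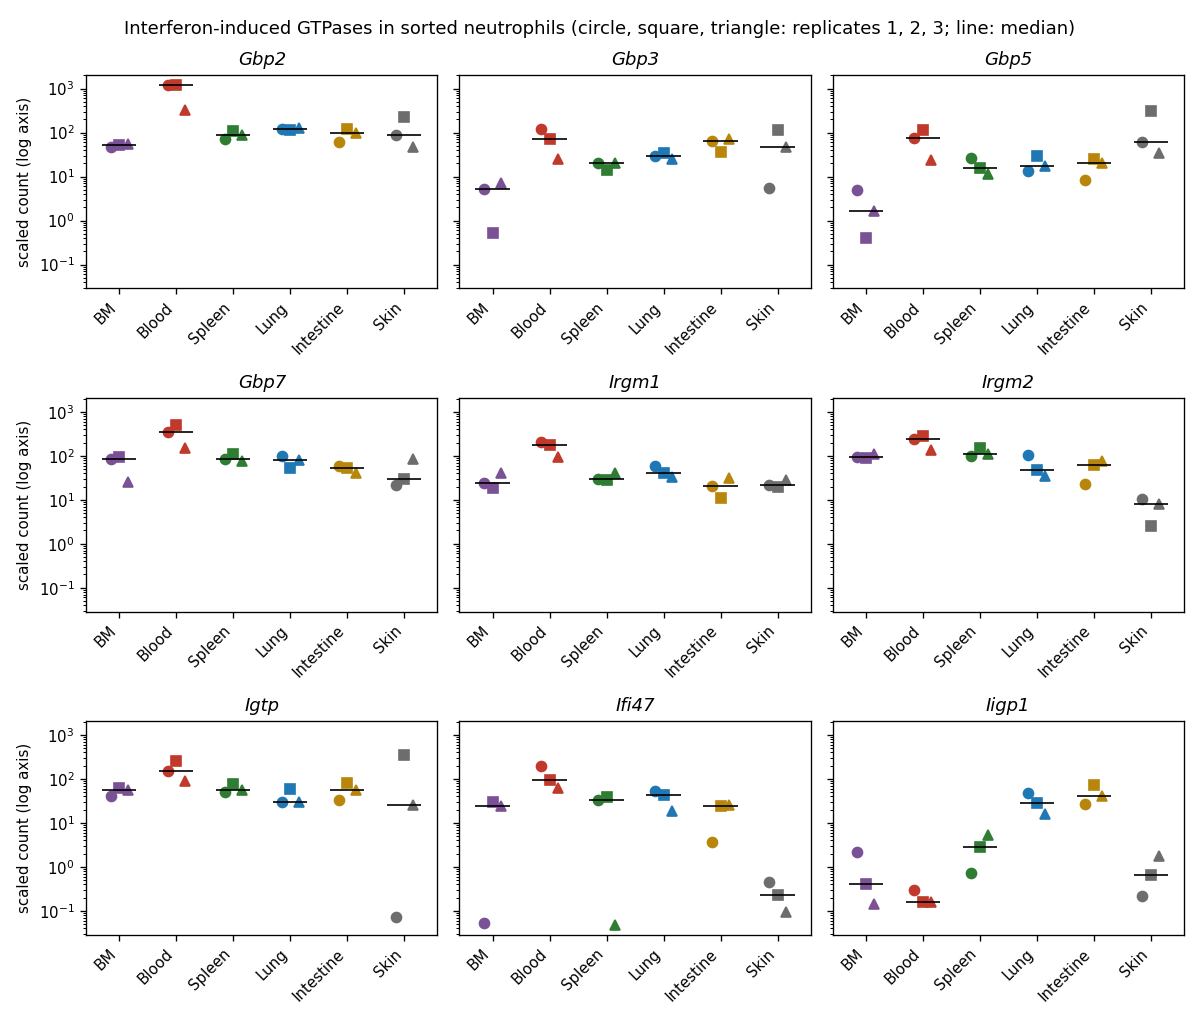
Scaled counts (log axis) of the 9 members in each of the 18 libraries, grouped by tissue, with symbols for replicates 1 to 3 and a line at the median. Blood is the highest group for most members, Iigp1 is near 0 in Blood and high in Lung and Intestine, and the Skin libraries scatter most.

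Gbp2, a GBP that loads onto bacteria and parasite vacuoles, was the most abundant member in Blood per kilobase of transcript. It read 1238, 1177 and 320.1 scaled counts in Blood and 45.97, 53.2 and 55.61 in BM. Values in Spleen were 72.76, 108.8 and 86.03, those of Lung 121.7, 113.5 and 127.2, those of Intestine 61.55, 120.6 and 96.39, and those of Skin 89.1, 227.4 and 48.08 (replicates 1, 2 and 3 in this order, here and below). The lowest Blood library was above every other library. The mean of Blood was 17.7-fold that of BM, 10.2-fold that of Spleen, 7.55-fold that of Lung, 9.82-fold that of Intestine and 7.5-fold that of Skin. On the log2(value + 1) scale, which understates changes of low genes, BM was lower than Blood (-3.89 ± 0.44, SE, n = 3 per tissue, as for all differences here; limma adjusted p = 2.18e-05). Spleen (-3.13 ± 0.37, limma adjusted p = 4.64e-06), Lung (-2.67 ± 0.47, 2.88e-04) and Intestine (-3.10 ± 0.46, 8.58e-06) were lower too. The Skin difference of -2.95 ± 0.83 passed narrowly (limma adjusted p = 0.0389) and was lost without Blood replicate 1 or 2 or Skin replicate 1 or 3, with adjusted p up to 0.343.

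Gbp7, a GBP of the same cluster, read 346.9, 495.1 and 151.4 scaled counts in Blood and 83.29, 94.84 and 25.28 in BM. Spleen read 83.57, 108.2 and 74.57, those of Lung 96.4, 54.0 and 81.51, those of Intestine 57.29, 52.97 and 40.89, and those of Skin 21.7, 29.87 and 84.89. Its Blood libraries were all above the others, and the other 5 tissues overlapped with their neighbours in the order of levels. Its differences from Blood were -2.32 ± 0.46 for BM (limma adjusted p = 0.00564), -1.75 ± 0.38 for Spleen (0.00447), -1.96 ± 0.49 for Lung (0.00697), -2.55 ± 0.48 for Intestine (1.5e-04) and -2.92 ± 0.87 for Skin (0.0496), all lower. The BM call was lost without BM replicate 3 (adjusted p = 0.105), the Lung call without Lung replicate 2, and the Skin call in 22 of 30 alternative analyses. Of the 61-base sequences in its transcripts, the read length used, 10.3% also occur in the overlapping pseudogene Gm43802, and the sum of both was again higher in each Blood library than in the other 15.

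Gbp3 and Gbp5 departed from this order. Gbp3 read 122.5, 73.17 and 25.49 scaled counts in Blood and 5.17, 0.514 and 7.01 in BM. The Spleen libraries read 20.65, 14.29 and 20.75, those of Lung 28.62, 34.93 and 24.61, those of Intestine 64.49, 36.8 and 72.75, and those of Skin 5.52, 116.4 and 46.97. BM and Spleen did not overlap Blood, whereas Lung, Intestine and Skin did. It was lower in BM (-3.89 ± 0.61, limma adjusted p = 7.44e-04) and Spleen (-1.69 ± 0.51, 0.0393), the latter lost without any of 4 libraries (Blood replicates 1 and 2, Spleen replicates 1 and 2), with an adjusted p up to 0.224. The Intestine difference was -0.14 ± 0.64 (limma adjusted p = 0.895), which does not show that the levels are alike.

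Gbp5, which in macrophages helps to assemble the NLRP3 inflammasome, read 74.9, 114.5 and 23.71 scaled counts in Blood and 4.96, 0.40 and 1.69 in BM. Values in Spleen were 26.08, 15.5 and 11.61, those of Lung 13.72, 29.87 and 17.8, those of Intestine 8.46, 25.19 and 20.77, and those of Skin 59.52, 314.8 and 34.13. All 3 BM libraries lay below every other library, and the highest value was that of Skin replicate 2. Gbp5 was lower in BM than in Blood (-4.41 ± 0.63, limma adjusted p = 2.38e-04), and BM was also lower than Intestine, the tissue above it in the order (limma adjusted p = 0.00801; 18.4% of genes were lower in BM there). The calls in Spleen (-1.76 ± 0.52, limma adjusted p = 0.0369) and Intestine (-1.78 ± 0.65, 0.0324) were lost without Blood replicate 1 or 2, without any 1 Spleen library for Spleen, and without Intestine replicate 1 or 3 for Intestine. Skin was 0.54 ± 1.19 above Blood (limma adjusted p = 0.915).

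Among the regulators, Irgm1, whose product protects host membranes and supports autophagy, read 205.1, 179.1 and 93.45 scaled counts in Blood and 23.68, 18.57 and 39.95 in BM. Spleen read 29.39, 28.82 and 39.67, those of Lung 59.46, 40.58 and 32.34, those of Intestine 20.13, 10.92 and 31.6, and those of Skin 21.59, 19.26 and 28.77. Blood did not overlap any other tissue, and Skin, which scattered for other members, was tight here. Irgm1 was lower than in Blood in BM (-2.49 ± 0.43, limma adjusted p = 0.00219), Spleen (-2.19 ± 0.36, 3.08e-04), Lung (-1.80 ± 0.46, 0.00871) and Intestine (-2.91 ± 0.45, 1.5e-05). The Lung call was lost without Lung replicate 2 (adjusted p = 0.107), and Skin, at -2.67 ± 0.82, missed the threshold (limma adjusted p = 0.0574).

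Irgm2 read 240.2, 277.4 and 135.8 scaled counts in Blood and 95.42, 86.97 and 107.7 in BM. The Spleen libraries read 96.56, 151.6 and 111.4, those of Lung 103.0, 47.04 and 34.85, those of Intestine 22.32, 61.72 and 78.03, and those of Skin 10.38, 2.54 and 8.21. The 3 Skin libraries were the lowest of all 18, and BM and Spleen were closest to Blood. It was lower than in Blood in Skin (-4.87 ± 0.82, limma adjusted p = 0.00169), Intestine (-2.10 ± 0.45, 5.62e-04) and Lung (-1.89 ± 0.46, 0.00568), the last lost without Lung replicate 2. BM (-1.11 ± 0.43, limma adjusted p = 0.185) and Spleen (-0.82 ± 0.36, 0.178) did not pass. Skin was lower than BM (limma adjusted p = 0.0123) and Spleen (0.00963) as well, where 3.7% and 2.1% of genes were. In reads, 5858 estimated counts in Blood stood against 119 in Skin, a ratio of 26.3 per effective library (95% exact interval 21.9 to 31.8, counting error only).

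Igtp, the neighbour of Irgm2, read 155.3, 262.8 and 90.94 scaled counts in Blood and 42.08, 62.19 and 55.12 in BM. Values in Spleen were 51.3, 78.84 and 55.87, those of Lung 30.01, 57.64 and 29.41, those of Intestine 32.79, 79.36 and 56.57, and those of Skin 0.0736, 349.3 and 26.06. Each tissue except Skin lay below Blood without overlap, while Skin held both the lowest value, an estimated count of 0 in replicate 1, and the highest, in replicate 2. It passed in Lung (-2.03 ± 0.61, limma adjusted p = 0.0246) and Intestine (-1.53 ± 0.60, 0.0431). The Lung call was lost without Blood replicate 2 or any 1 of the 3 Lung libraries. The Intestine call was lost without Blood replicate 1 or 2 or Intestine replicate 1 or 3. Of the 61-base sequences of Igtp, 9.88% also occur in Irgm2, so the split of reads between both is uncertain. Their sum was 395.4, 540.2 and 226.7 in Blood, and 2 of the other 15 libraries, Spleen replicate 2 (230.5) and Skin replicate 2 (351.9), lay above the lowest of these.

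Of the effector IRGs, Ifi47 read 199.9, 93.2 and 61.91 scaled counts in Blood and 0.0534, 29.32 and 24.44 in BM. Spleen read 33.19, 38.99 and 0.0477, those of Lung 53.28, 43.49 and 18.81, those of Intestine 3.72, 24.83 and 25.35, and those of Skin 0.46, 0.227 and 0.093. All Blood libraries lay above the others and all 3 Skin libraries were near 0, but BM replicate 1 and Spleen replicate 3 were near 0 too, with estimated counts under 1. The gene shares 2.11% of its 61-base sequences with the overlapping Olfr56, which read 0.577 and 6.2 scaled counts in those 2 libraries. It passed in Spleen (-3.23 ± 0.98, limma adjusted p = 0.042), a call lost in 18 of 31 alternatives, including the one without Spleen replicate 3 (-1.52). The Skin difference of -6.40 ± 2.25 did not pass (limma adjusted p = 0.0993), although the counts were 3120 in Blood and 3 in Skin, a ratio per effective library of 555 (95% exact interval 190 to 2690, counting error only).

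Iigp1 (ENSMUSG00000054072, chr18:60376027-60392634, plus strand) ran the other way. It read 0.299, 0.163 and 0.156 scaled counts in Blood, from 2, 1 and 1 reads, and 2.14, 0.40 and 0.145 in BM. The Spleen libraries read 0.734, 2.8 and 5.25, those of Lung 47.43, 28.45 and 16.22, those of Intestine 26.5, 73.66 and 42.01, and those of Skin 0.221, 0.649 and 1.77. The 6 libraries of Lung and Intestine were above the other 12, and Lung and Intestine overlapped each other. Iigp1 was higher than in Blood by 4.59 ± 0.73 in Lung (limma adjusted p = 1.05e-04) and by 5.21 ± 0.71 in Intestine (3.11e-06), and both calls held in all 31 alternatives tried. Lung also exceeded Spleen, the next tissue in the order (limma adjusted p = 0.00707, with 6.83% of genes lower in Spleen). With 683 estimated counts in Lung, 1682 in Intestine and 4 in Blood, the ratios per effective library were 183 (95% exact interval 71.1 to 673) and 331 (129 to 1220).

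Markers of other cells moved with Iigp1. The 8 endothelial markers summed to 1240 to 4350 scaled counts in Lung and 693 to 1740 in Intestine, against 29.8 to 59.2 in Blood, 11.7 to 41.7 in BM, 55.6 to 117 in Spleen and 62.8 to 190.2 in Skin. All 8 were detected in each Lung and Intestine library. The 8 fibroblast and muscle markers summed to 6290 to 13300 in Intestine and 206 to 1290 in Lung, but also to 1140 to 4160 in Skin, where Iigp1 stayed under 2. Within Lung, both Iigp1 and the endothelial sum were highest in replicate 1 and lowest in replicate 3, and within Intestine both were highest in replicate 2 and lowest in replicate 1. The fibroblast and muscle sum had the same order in both tissues. In Lung the epithelial (2380, 1410 and 239) and B cell sums (876, 693 and 241) had it too. The neutrophil sum ran the other way there (5870, 9760 and 18500). The part of any of these cells in the Iigp1 level was not tested.

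**Figure D2:**
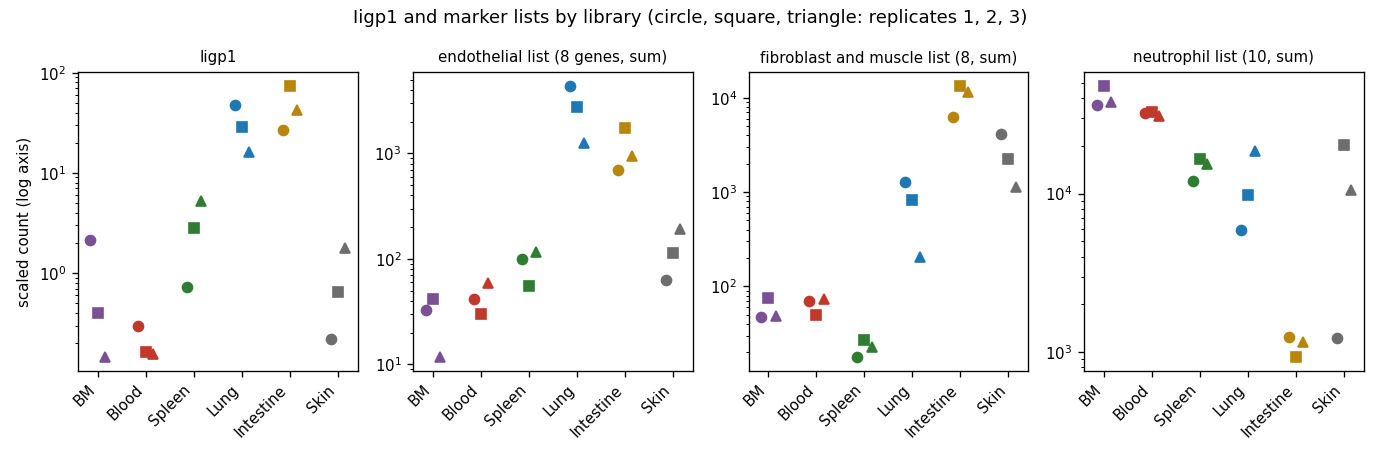
Scaled counts (log axes) of Iigp1 and the summed scaled counts of the endothelial, fibroblast and muscle, and neutrophil marker lists in the 18 libraries, with symbols for replicates 1 to 3. Iigp1 and the endothelial sum are high in Lung (1240 to 4350 for the sum) and Intestine (693 to 1740), where the neutrophil sum of Intestine is low (929 to 1240).

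Counted by tissue, against Blood, the members showed the following; these comparisons share the 3 Blood libraries. In BM 5 members were lower, Gbp2, Gbp3, Gbp5, Gbp7 and Irgm1, and 0 higher, where 1.26% of tested genes were lower and 1.62% higher. By limma without adjustment (p under 0.05) 8 members were lower (7.89% of genes) and 0 higher (7.62%), and with voom, after adjustment, 4 (0.922%) and 0 (1.64%). The median member difference was -2.49 and that of all genes -0.0040. In Spleen 6 were lower (2.53% of genes) and 0 higher (5.94%), with a median of -1.75 against 0.033, while by unadjusted p 8 were lower (8.1%) and Iigp1 higher (13.3%), and with voom 3 (2.97%) and 0 (5.46%) passed. In Lung 5 were lower (5.16%) and 1, Iigp1, higher (10.7%), with a median of -1.80 against 0.032.

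In Intestine 6 were lower (17.6%) and Iigp1 higher (23.7%), with a median of -2.10 against 0.12. The mitochondrial share of counts was 23.2, 8.58 and 8.24% in Intestine and 0.209 to 2.87% in all other libraries. Neutrophil markers summed to 929 to 1240 in Intestine and 30700 to 32800 in Blood. Fibroblast and muscle markers summed to 6290 to 13300 in Intestine and 50.4 to 73.6 in Blood. The part of mitochondrial counts and of cell content in the Intestine differences, here and below, was not tested. Skin had 3 lower members (3.76%), Gbp2, Gbp7 and Irgm2, and 0 higher (1.65%), with a median of -2.85 against -0.26, while 6 were lower (12.7%) and 0 higher (6.1%) by unadjusted p. With voom, 0 were lower (1.25%) and 0 higher (3.45%) in Skin after adjustment, and 6 (11%) and 0 (8.63%) before it. The predicted gene Gm10800 held 11.2 to 23.7% of all values in the Skin libraries and 0.419 to 3.59% in the others, and its part in the Skin levels was not tested. All 3 libraries lay below all 3 of Blood for 8 members in BM (9.93% of genes), for 6 in Spleen (15.7%), for 6 in both Lung (14.5%) and Intestine (24.1%), and for 5 in Skin (17.7%). Iigp1 alone lay above in all 3 libraries of Spleen (13.5% of genes), Lung (17.6%) and Intestine (26%). The counts depended on the weights and on single libraries. With equal weights for all libraries they were 2 in BM, 1 in Spleen, 2 in Lung and 5 in Skin. Without Blood replicate 1 or 2, Spleen had 3 calls and Skin 1, without Lung replicate 2 Lung had 2, and without Skin replicate 1 or 3 Skin had 1. The calls over all genes fell as well. Spleen had 878 without Blood replicate 1 and 836 without replicate 2, against 1368 with all libraries, and Skin 740 and 689 against 874. Lung had 885 without Lung replicate 2, against 2563. Skin had 160 without Skin replicate 1 and 425 without replicate 3. The Gbp2 calls in BM, Spleen, Lung and Intestine, the Gbp5 call in BM and the Gbp7, Irgm1 and Irgm2 calls in Intestine held in all 31 alternatives.

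**Figure D3:**
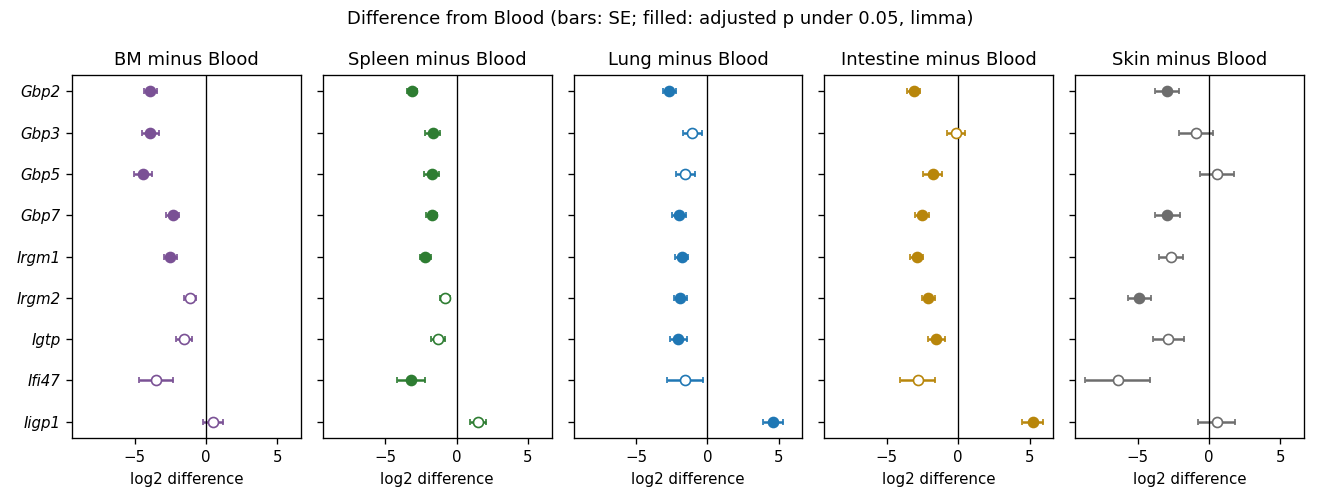
Log2 difference from Blood of each member in 5 tissues, as points with the SE from limma (n = 3 per tissue), filled where the adjusted p was under 0.05. Most points lie left of 0, with filled points for 5 members in BM, 6 in Spleen and Lung, 7 in Intestine and 3 in Skin, and Iigp1 lies right of 0 in Lung and Intestine.

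Of the 45 pairs of tissues that neighbour each other in the order of a member's level, 5 passed limma's test, a description since the order came from the same values. They were Blood above Lung for Gbp2 and Irgm1, Blood above Spleen for Gbp7, Intestine above BM for Gbp5 and Lung above Spleen for Iigp1. The other 40 missed the threshold. In 34 of these the libraries overlapped, and in 6 they did not, among them Spleen above BM for Gbp3 (limma adjusted p = 0.0505) and Intestine above Skin for Irgm2 (0.0867). Without Lung replicate 2 the count was 3 and without Blood replicate 3 it was 8.

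Within Blood the libraries were not alike. Replicate 3 was the lowest of the 3 Blood libraries for all 9 members, though for Iigp1 replicates 2 and 3 both held 1 read. The mean of replicates 1 and 2 was 3.77-fold its value for Gbp2, 3.84-fold for Gbp3, 3.99-fold for Gbp5, 2.78-fold for Gbp7 and 1.91-fold for Irgm2. Replicate 3 was the lowest Blood library for 39.3% of tested genes, with a median ratio of 1.10, for 12 of 13 interferon-gamma signalling genes (median 1.23) and for 19 of 20 type I interferon targets (median 2.06). Genes with a count of 0 in all 3 Blood libraries, such as Ifng, fall to replicate 3 because its effective library is the largest. Its neutrophil marker sum was 30700, against 32200 and 32800 in replicates 1 and 2, and its platelet marker sum (4 genes) was 12.0, against 80.4 and 72.9. Even so it exceeded all 15 libraries of other tissues for Gbp2, Gbp7, Irgm1 and Ifi47. Without it, the calls against Blood numbered 5 for BM, 4 for Skin and 7 for each of the other 3 tissues. Over all genes the calls without it numbered 513 for BM, 783 for Skin, 1264 for Spleen, 2474 for Lung and 6225 for Intestine.

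Markers of other cells were also read in Blood. The 6 erythroid markers summed to 2900 to 8880 scaled counts there and to at most 2070 in any other library. T and NK cell markers summed to 28.0 to 58.4 in Blood, with Trbc2, Gzma, Ncr1 and Klrb1c at 0 in all 3 libraries, and B cell markers to 67.1 to 129, with Blk at 0 in all 3. Macrophage, monocyte and dendritic cell markers summed to 573 to 965 in Blood, 625 to 1050 in BM and 749 to 1450 in Intestine. In Skin they summed to 625 to 2580, in Spleen to 432 to 543 and in Lung to 403 to 610. Platelet markers summed to 12.0 to 80.4 in Blood, 14.4 to 57.9 in Lung, 21.3 to 71.1 in Intestine and 4.84 to 55.5 in Skin. In Spleen they summed to 0.693 to 12.4 and in BM to 0.229 to 11.4. The part of erythroid cells and platelets in the Blood levels was not tested.

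The make-up of each family, compared per kilobase of the longest coding transcript, also differed between tissues. Gbp2 made up 74.2 to 78.9% of the summed Gbp level per kilobase in Blood, 49.8 to 74.2% in BM, 48.2 to 59.3% in Spleen, 58.2 to 63.1% in Lung, 39.8 to 60.4% in Intestine and 30.4 to 58.2% in Skin. In Blood it thus ranked first with little spread, and no library elsewhere was above the Blood range. Gbp3 took 17.3 to 39.1% in Intestine and 4.4 to 7.32% in Blood, and Gbp5 17.8 to 42.6% in Skin and 3.93 to 6.04% in Blood. Among the IRGs, Iigp1 took 14.7 to 23.8% per kilobase in Intestine, 9.53 to 13.1% in Lung and 0.0154 to 0.0313% in Blood. In Blood the other 4 were of similar level, from 61.7 ± 20.8 scaled counts per kilobase for Irgm2 to 83.9 ± 43.0 for Igtp (SD, n = 3). These shares were not tested.

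**Figure D4:**
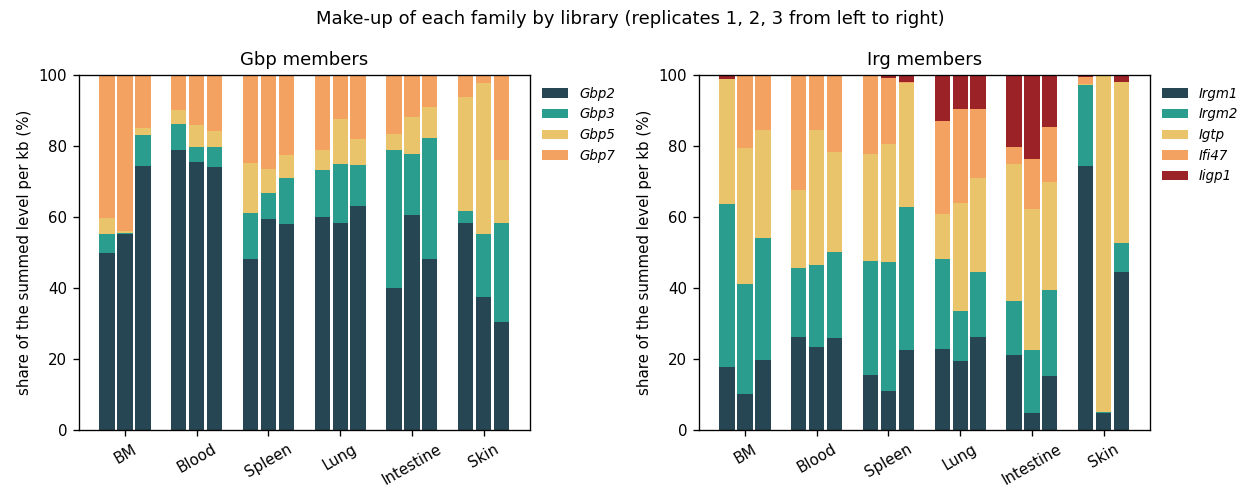
Share (%) of each member in the summed level per kilobase of its family, for the Gbp members (left) and the Irg members (right), with 1 bar per library. Gbp2 fills 74.2 to 78.9% of the Gbp bars in Blood, and Iigp1 appears mainly in Lung and Intestine.

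Skin replicate 2 was the highest library outside Blood for Gbp2, Gbp3, Gbp5 and Igtp. The same library read 399.7 scaled counts of Gm12250 (also called Irgb10, an IRG that acts on bacterial membranes), where the 3 Blood libraries read 40.49, 50.13 and 14.84. It was nevertheless the lowest of all libraries for Irgm2 (2.54) and near 0 for Ifi47 (0.227). Its Iigp1 value, 0.649, came from 1 read, where the 3 Blood libraries held 2, 1 and 1. With 0 reads this small library would read 0.216, already above Blood replicates 2 and 3 (0.163 and 0.156). The Iigp1 level of this library thus cannot be ranked against Blood. In Skin replicate 1 Igtp and Gm12250 were both at an estimated count of 0. Macrophage, monocyte and dendritic cell markers summed to 2580 in Skin replicate 2, the highest of all libraries, and to 625 and 1850 in replicates 1 and 3. The neutrophil sum of replicate 2, 20300, was the highest of Skin too. The part of these cells in the Skin levels was not tested.

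The upstream genes were taken next. Irf1, itself induced by interferon, read 458.5, 495.0 and 446.1 scaled counts in Blood and 139.0, 117.8 and 279.0 in BM. Values in Spleen were 329.1, 358.1 and 249.1, those of Lung 226.2, 279.3 and 242.6, those of Intestine 92.4, 85.19 and 61.33, and those of Skin 205.9, 15.36 and 88.26. Every Blood library lay above the 15 others. Irf1 was lower in BM (-1.48, limma adjusted p = 0.0155), Intestine (-2.56, 4.02e-06) and Skin (-2.80, 0.0129), and Spleen and Lung did not pass. Irf9 was lower in BM (-2.38, limma adjusted p = 0.0303) and Intestine (-2.64, 0.00167).

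Irf8, a transcription factor of the myeloid and B cell lineages, went the other way, with 1.14, 5.39 and 2.66 scaled counts in Blood. It was higher in Spleen (4.28, limma adjusted p = 4.85e-05), Lung (3.0, 0.00801) and Intestine (4.44, 4.04e-05). B cell markers summed to 2090 to 3980 in Spleen, 241 to 876 in Lung and 78.7 to 289 in Intestine. The last range overlaps that of Blood, 67.1 to 129. Macrophage, monocyte and dendritic cell markers summed to 749 to 1450 in Intestine and 573 to 965 in Blood. They summed to 432 to 543 in Spleen and 403 to 610 in Lung. The part of any of these cells in the Irf8 level was not tested. The receptor genes Ifngr1 (-1.41, limma adjusted p = 0.00151) and Ifngr2 (-2.96, 0.00134) and the kinase genes Jak1 (-1.38, 5.04e-05) and Jak2 (-1.41, 0.00266) were lower in Intestine and passed in no other tissue. The part of the low neutrophil marker sum of Intestine (929 to 1240) in these 4 differences was not tested. Ifng itself had 0 estimated counts in all 3 Blood and all 3 Skin libraries and at most 38 counts summed over a tissue, and did not pass the F test (limma adjusted p = 0.77). Stat2, Socs1, Ptpn2 and Ptpn11 did not pass it either.

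Type I interferon targets act mainly against viruses. Of 20 tested, 9 were lower than in Blood for BM (1.26% of all tested genes were), 12 for Spleen (2.53%), 10 for Lung (5.16%), 16 for Intestine (17.6%) and 3 for Skin (3.76%), and 16 passed the F test. By limma 0 were higher in any tissue, with adjusted or unadjusted p. Their median differences were -1.74 for BM, -1.71 for Spleen and for Lung, -3.04 for Intestine and -1.33 for Skin. Oas3, which makes the 2-5A signal for RNA decay, read 3404, 4112 and 1958 scaled counts in Blood and 41.14, 85.3 and 82.23 in Intestine, a difference of -5.49 (limma adjusted p = 2.85e-09). Rtp4 (-6.27, limma adjusted p = 1.37e-06), Oasl2 (-4.62, 5.93e-08) and Trim30a (-3.38, 3.94e-07) were lower in Intestine as well. Whether the low neutrophil marker sum of Intestine has a part in these differences was not tested. Of 5 genes of the type I input tested, 2 were lower in Spleen (2.53% of all tested genes) and 3 in Intestine (17.6%). Irf7 was lower in Spleen (-1.58, limma adjusted p = 0.0311) and Intestine (-3.27, 6.26e-05).

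Other targets of interferon-gamma went both ways. Of 19 tested, the lower ones numbered 1 for BM (1.26% of all tested genes), 1 for Spleen (2.53%), 4 for Lung (5.16%), 6 for Intestine (17.6%) and 2 for Skin (3.76%). The higher ones numbered 1 for Spleen (5.94%), 1 for Lung (10.7%) and 3 for Intestine (23.7%). Serping1, the C1 inhibitor of complement, read 0.419, 0.272 and 1.09 scaled counts in Blood, 133.9, 73.28 and 20.04 in Lung, and 125.7, 275.8 and 331.9 in Intestine. It was higher in Lung (5.26, limma adjusted p = 1.87e-05) and Intestine (7.19, 3.24e-08), the tissues in which Iigp1 and the endothelial sum were high. The fibroblast and muscle sum was high in these and also in Skin (1140 to 4160), where Serping1 did not pass (2.49, limma adjusted p = 0.301). The part of other cells in the Serping1 level was not tested. Ciita, the regulator of class II antigen presentation genes, was higher in Spleen (3.47, limma adjusted p = 2.12e-04) and Intestine (2.57, 0.00417), and Tap1, a peptide transporter gene, was lower in Lung (-1.48, 0.0227) and Intestine (-2.57, 3.95e-05).

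**Figure D5:**
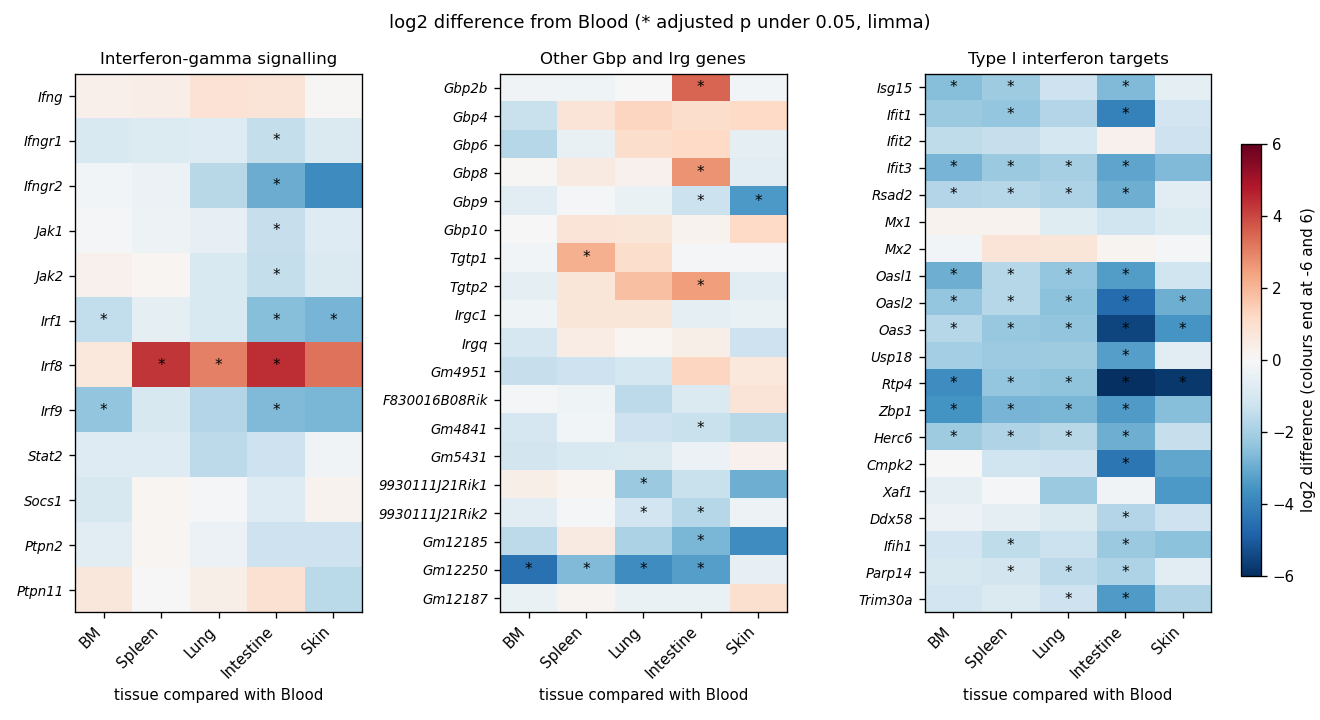
Log2 difference from Blood, coloured from -6 to 6, of interferon-gamma signalling genes, other Gbp and Irg genes and type I interferon targets in 5 tissues, with an asterisk where limma's adjusted p was under 0.05. Most type I targets are lower in Intestine than in Blood, Irf8 is higher in 3 tissues, and the other Gbp and Irg genes go both ways.

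The rest of the 2 families was read beside the members. Of 19 tested, the lower ones numbered 1 for BM (1.26% of all tested genes), 1 for Spleen (2.53%), 3 for Lung (5.16%), 5 for Intestine (17.6%) and 1 for Skin (3.76%), and 1 was higher for Spleen (5.94%) and 3 for Intestine (23.7%). Gm12250 was lower in BM (-4.48, limma adjusted p = 0.00367), Spleen (-2.65, 0.016), Lung (-3.74, 0.0044) and Intestine (-3.32, 0.00317). Gbp2b, which shares 1.51% of the 61-base sequences of Gbp2, read 62.28, 3.37 and 9.26 scaled counts in Intestine and under 1 in all other libraries, and was higher there (3.49, limma adjusted p = 6.38e-05). Gbp8 (2.70, limma adjusted p = 0.0133) and Tgtp2 (2.50, 0.0363) were higher in Intestine, and Tgtp1 in Spleen (2.11, 0.0316). Gbp9 was lower in Intestine (-1.28, limma adjusted p = 0.0434) and Skin (-3.46, 0.0274), Gm12185 (-2.72, 0.0122) and Gm4841 (-1.33, 0.0408) in Intestine, 9930111J21Rik1 in Lung (-2.22, 0.0128), and 9930111J21Rik2 in Lung (-1.13, 0.0188) and Intestine (-1.72, 1.31e-04). Gbp4, Gbp6, Gbp10, Irgc1, Irgq, Gm4951, F830016B08Rik, Gm5431 and Gm12187 passed in none of the 5 comparisons.

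The partners of the GTPases were read the same way. Of all tested genes, 17.6% were lower and 23.7% higher in Intestine, 5.16% and 10.7% in Lung, 2.53% and 5.94% in Spleen, and 3.76% and 1.65% in Skin, and the counts in these small lists stand beside those shares. Of 6 inflammasome genes, 4 were lower in Intestine, 2 in Lung, 1 in Spleen and 1 in Skin, and 1 was higher in Lung. Casp4, the caspase that GBPs supply with lipopolysaccharide, read 186.5, 303.3 and 140.4 scaled counts in Blood and 28.59, 33.13 and 41.63 in Intestine, and was lower in Spleen (-1.43, limma adjusted p = 0.0279), Lung (-2.45, 0.00185), Intestine (-2.52, 3.16e-04) and Skin (-3.35, 0.0344). Nlrp3 was higher in Lung (1.41, limma adjusted p = 0.01) and lower in Intestine (-2.32, 1.59e-05), and Casp1 was lower in Lung (-1.37, 0.029) and Intestine (-1.86, 8.9e-04). Most of 12 autophagy genes belong to the ubiquitin-like conjugation machinery that places IRGs and GBPs on vacuoles, which Becn1 and Sqstm1 do not. Of the 12, 7 were lower in Intestine, 3 in Lung, 1 in Spleen and 1, Becn1, in Skin. Gabarapl1 was higher in Lung and Intestine. Among the lower were Atg3 (-3.12, limma adjusted p = 3.07e-08) and Gabarap (-2.58, 1.15e-06), both in Intestine. The 5 prenylation genes encode enzymes that attach the lipid anchor of Gbp2 and Gbp5 or process the protein end that carries it. Of these genes, Rce1 (1.99, limma adjusted p = 0.0178) and Pggt1b (1.96, 0.0348) were higher in Intestine. In limma's F test 0 passed (1 by unadjusted p).

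The genes closest in pattern to the mean of the 4 Gbp members over the 18 libraries, among 6154 protein-coding genes with a mean of at least 20 scaled counts, were Socs3 (Pearson r = 0.773), Cux1 (0.759), Mvp (0.742), Csf2rb2 (0.733) and Oasl1 (0.733). Socs3, an inhibitor of cytokine signalling, averaged 471 scaled counts in Blood and 351 in Skin, and 50.3 to 167 in the other 4. Closest to the mean of the 5 Irg members were Mmgt1 (0.859), Retreg3 (0.831), Pfdn5 (0.808), Glod4 (0.803) and Parp12 (0.799). All of these 5 had their lowest mean in Skin, such as Glod4 with 0.19 scaled counts there and 19.5 to 36.4 elsewhere. These correlations are descriptions over points that share tissues and depth.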

How the data were processed

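RNA-seq of sorted neutrophils from 6 tissues was deposited by the authors as 1 table of signal values for 32328 genes in 18 libraries. Per the labels' protocols, amplification used an Ovation Single Cell kit, and reads were single-end and 61 nt long. CASAVA, RSEM 1.3.1, limma and mm10 are named in the submitters' processing notes, and their order, settings and annotation are not given in the sources used here. The table is named for TPM, but the deposited signal values carry no gene length: as read from the values, 0.5 was added to each estimated count, 1 to each effective library size, and their ratio multiplied by 1000000. Counts were recovered from each library's floor. Intervals on ratios of counts (exact, 95%) cover counting error only.

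Symbols and positions came from GENCODE vM21 (31820 identifiers named, 508 not). The 16157 genes that reached a value of 1 in 3 or more libraries entered the test. log2(value + 1) was fitted with limma 3.58.1 (R 4.3.3) as 6 group means with 1 estimated weight per tissue, a trended prior and p-values adjusted over all 16157 genes by Benjamini and Hochberg's method, called at 0.05, and every adjusted p is from this fit unless another is named. The weights allow for the wider spread of Skin. The fit was tested on simulated data. Shared sequence was counted as 61-base runs in annotated transcripts. The genes named are the 9 members, the signalling genes, the other Gbp and Irg genes, up to 4 genes with the smallest F test p in each other list, and the 5 genes closest to each family mean. Those 10 were ranked by Pearson correlation. The members, lists and tests were chosen with earlier results of these data known. Libraries that share a replicate number across tissues did not deviate together, which cannot exclude that they came from the same animals. In the labels Blood replicate 3 carries the letter D, where replicate 3 of every other tissue carries C. Blood replicate 2 and Skin replicate 1 carry the suffix rep, which is not explained. Strand use is not stated, so overlapping genes are uncertain. No sequence is printed for Iigp1. A gene of the signalling list and a B cell marker are not reported here. Python 3.11.15 with pandas 2.3.3 and scipy 1.17.1 was used besides.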

Additional observations from a re-analysis of the deposited data

How the results depend on the processing

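The values limit what can be said of single calls: 3 libraries per tissue, a wide spread in Skin, and in 14 library values of 4 members an estimated count of 3 or fewer. Over 1653 recomputed member values, 1484 kept their direction and side of the threshold, 9 changed sign with neither value past the threshold, 127 no longer passed, 33 passed newly, and 0 called values changed sign. These values recompute 54 main results, of which 36 had passed, and only those 36 could be lost. The F tests among the 54 have no sign that could change. With equal weights for all libraries the number of members that passed was 2 in BM, 1 in Spleen, 2 in Lung and 5 in Skin, and 5 in Skin also with a weight per library, quantile scaling or scaling to the total estimated counts. Without a filter 3 passed in Spleen and 1 in Skin, with scaling to the total 3 in Spleen, and with voom 3 in Spleen and 0 in Skin. A filter at 5 or median-of-ratios scaling left 1 in Skin. The main fit had 874 calls in Skin and 1368 in Spleen over all genes. Skin had 1147 with a weight per library, 1293 with quantile scaling and 1714 with scaling to the total. Without a filter (23276 genes) Skin had 508, with a filter at 5 (13230 genes) 679, with median-of-ratios scaling 580 and with voom 759. Spleen had 1042 without a filter, 1517 with scaling to the total and 1362 with voom. The causes were not tested.

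Leaving out 1 library at a time gave 7 to 9 members in the F test, 4 to 6 in BM, 3 to 7 in Spleen, 2 to 7 in Lung, 5 to 8 in Intestine, 1 to 4 in Skin and 3 to 8 neighbouring pairs. Over all genes, equal weights gave 33 calls in BM in place of 466, 98 in Spleen in place of 1368, 1017 in Lung in place of 2563, 4196 in Intestine in place of 6679 and 2597 in Skin in place of 874.

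Libraries with the same replicate number did not deviate together (correlations -0.060 to 0.106 over 45 pairs, 7 of 18 closest to their own number). With the replicate number as a block, 9 members passed the F test, 5 in BM, 6 in Spleen, 6 in Lung, 7 in Intestine, 3 in Skin and 6 neighbouring pairs.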
